A study of Mus musculus with 6 samples.

Results

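The genes described here encode the proteins of the cytosolic ribosome. They were the 79 rows, of 12969 in the table, whose symbol follows the naming of large-subunit (Rpl) or small-subunit (Rps) proteins or is Rplp0, Rplp1, Rplp2 or Rpsa, with Rpl29, Rps3a and rows named as pseudogenes left out. Of these, 47 belong to the large and 32 to the small subunit. The rule used names, but it was set with earlier results of these data known. Total RNA of the infarct was sequenced from male mice of about 12 weeks, 4 days after the left anterior descending coronary artery had been tied off permanently. The 3 knockout mice were Irf3-/- and the 3 controls were wild-type C57BL/6. Irf3 encodes a transcription factor of the antiviral and interferon response. For the knockout mice, the strain and the deleted part of Irf3 are not given in the sources used, and a difference in genetic background and the loss of Irf3 cannot be told apart.

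Each ribosome holds 1 copy of most of its proteins, and cells make them in matched amounts with the ribosomal RNA. Most of their mRNAs begin with a short run of C and T bases, the 5′ terminal oligopyrimidine tract, through which mTORC1 and the RNA-binding protein Larp1 control how strongly they are translated. In the injured heart their mRNAs come from surviving cardiomyocytes as well as from the macrophages, fibroblasts and endothelial cells that fill the infarct. The short, intronless copies of ribosomal protein mRNAs scattered over mammalian genomes (processed pseudogenes) share much of their sequence and can share their reads.

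The tract that most of these mRNAs have in common could be read from RefSeq for 60 of the 79 genes, on build GRCm38.p6. A run of at least 6 pyrimidines beginning with C was searched on the coding strand within 10 bases of the annotated start. It was found in 33 of the 60 (55%), and in 23.8% of all tested genes with a RefSeq promoter. Of the 5 genes with the lowest fold changes between knockout and wild type, Rpl10a and Rps12 have a match, and Rplp0, Rpl5 and Rpl9 do not. The 30 bases centred on the start are shown for the 5 genes with the highest fold changes, with the tract in capitals. Among these, Rpl3l, the muscle paralogue of Rpl3, has no match in this window.
Rpl38 (chr11:114668565-114668594, plus strand): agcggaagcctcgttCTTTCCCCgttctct
Rpl28 (chr7:4792950-4792979, plus strand): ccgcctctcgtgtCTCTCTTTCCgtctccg
Rpl22l1 (chr3:28805493-28805522, plus strand): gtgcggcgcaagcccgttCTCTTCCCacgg
Rpl39 (chrX:37085208-37085237, minus strand): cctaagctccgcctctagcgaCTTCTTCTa
Rpl3l (chr17:24727811-24727840, plus strand): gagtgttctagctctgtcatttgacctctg

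Libraries held 14.8 M to 61.9 M reads in genes, and the smallest number of reads behind any of the 79 genes in a library was 20. All 79 passed the filter of a mean of at least 1 RPKM (reads per kb of gene length and per M reads in genes). The Irf3 row averaged 7.94 ± 0.71 RPKM in the knockout and 13.1 ± 1.3 in the wild type (SD, n = 3 each; log2 fold change -0.65 ± 0.18 SE, limma adjusted p = 0.344), with no overlap between the groups. Knockout replicate 2 stood apart from the other 5 libraries: the median of all tested genes lay at -0.29 there relative to the wild-type mean on the log2 scale, against -0.04 to 0.04 in the others. Counts and medians are therefore given with and without it, and for a named gene the value without it is added where it moves the log2 fold change by more than 1.5 times or turns its sign. The summed RPKM of 15 cardiomyocyte markers was 17500, 27900 and 20200 in knockouts 1 to 3 and 8090, 15600 and 22500 in wild types 1 to 3. The summed level of 14 macrophage markers was 5840, 2240 and 4680 in the knockout and 6250, 3480 and 3420 in the wild type. Median log2 fold changes were -0.33 for the macrophage list, -0.47 for 12 fibroblast, -0.13 for 10 endothelial, -0.31 for 8 smooth muscle and pericyte and -0.15 for 6 neutrophil markers, none of which was called, and 2 of 11 lymphocyte markers were tested. Leaving out knockout replicate 2 gave 0.01, -0.29, close to 0, -0.20 and -0.15, and leaving out wild-type replicate 1 gave -0.08, -0.46, -0.06, -0.38 and 0.21. In bulk tissue, fewer cells of a type and less RNA per cell cannot be told apart.

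No ribosomal protein gene was called between knockout and wild type (limma on log2(RPKM + 1), Benjamini-Hochberg adjusted p under 0.05 over 12913 tested genes), where 0.503% of all tested genes were called. Without knockout replicate 2 the count was again 0, beside 0.743% of all genes. At an unadjusted p under 0.05, 5 genes stood higher and 3 lower, beside 2.45% and 5.96% of all tested genes. With each library weighted by its estimated precision, 24 genes were called higher and 5 lower, in a fit that called 22.9% of all tested genes and gave knockout replicate 3 a weight of 6.355 and knockout replicate 2 one of 0.103. The genes nonetheless sat a little above the bulk of the transcriptome. Their median log2 fold change was 0.16, with a range of -1.30 to 1.17, against -0.09 for all tested genes. Of the 79, 57 (72.2%) were above 0, against 40.7% of all tested genes. Without knockout replicate 2 the median was 0.13 against 0.01, and 60 genes were above 0 against 52.1%. Scaling the libraries by the median of ratios moved both medians up by about the same amount, to 0.27 for the ribosomal protein genes and 0.02 for all tested genes.

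This offset did not separate the genotypes library by library. Relative to the wild-type mean, the median of the 79 genes was 0.17, 0.19 and 0.11 in knockouts 1 to 3 and 0.28, -0.12 and -0.17 in wild types 1 to 3. Wild-type replicate 1 was thus the highest of all 6 libraries, and the groups overlapped. The share of all reads that fell in the 79 genes gave the same picture, at 1.01%, 1.07% and 0.974% in the knockout and 1.13%, 0.826% and 0.793% in the wild type. In wild-type replicate 1, 75 of the 79 genes lay above the wild-type mean, and in wild-type replicates 2 and 3 it was 11 and 5. That mean includes replicate 1, so the counts in replicates 2 and 3 follow largely from the first. Wild-type replicate 1 was also the library with the lowest cardiomyocyte and the highest macrophage sum, and the part of cell composition in the offset was not tested. Without it the median fold change of the 79 genes was 0.30, against -0.08 for all tested genes. Wild-type replicate 1 was picked by the values of these same genes, so a rise of their median follows from that choice. The same limit holds for the medians without it given below for groups of these genes.

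**Figure D1:**
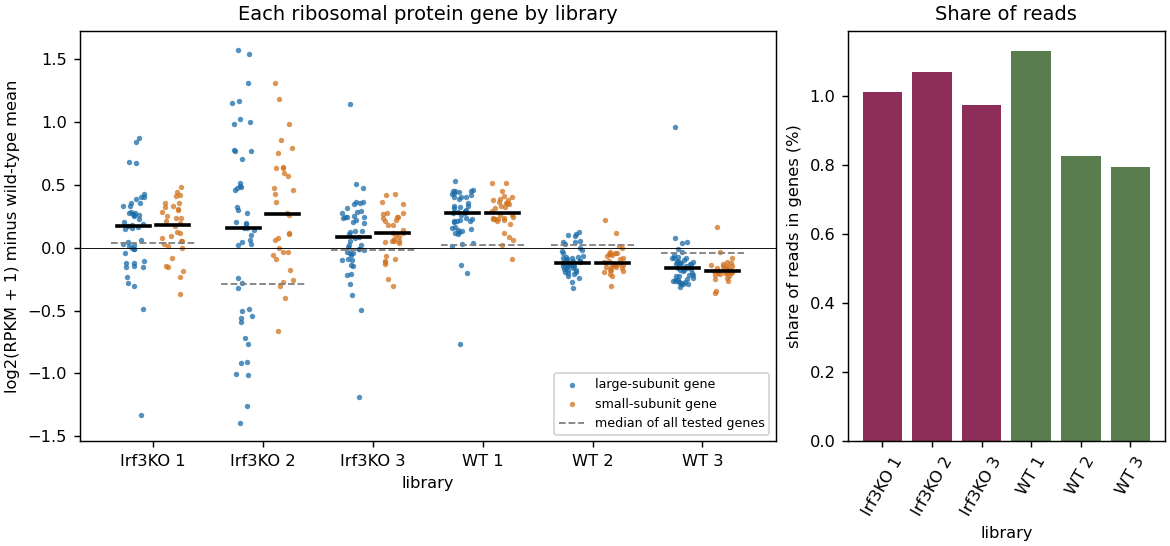
Left, each of the 79 genes in each library as log2(RPKM + 1) minus its wild-type mean, split by subunit, with black bars at the medians and a dashed line at the median of all tested genes. Right, the share of reads in genes held by the 79 genes; the highest bar is wild-type replicate 1 at 1.13%, and the spread of points is widest in knockout replicate 2.

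The subunits had similar medians. The log2 fold change of the 47 large-subunit genes had a median of 0.15, with 28 above 0. The 32 small-subunit genes, which build the part of the ribosome that reads the mRNA, had a median of 0.18, with 29 above 0. Without knockout replicate 2 both medians were 0.13, with 35 and 25 genes above 0, and without wild-type replicate 1 they were 0.28 and 0.30. The reads in large-subunit genes over those in small-subunit genes came to 1.15, 1.08 and 1.13 in the knockout libraries and 1.21, 1.30 and 1.28 in the wild type. These ratios did not overlap between the groups. The groups did overlap once Rplp0 was left out, at 1.09, 1.03 and 1.07 against 1.06, 1.14 and 1.12, and did not with the copies described below counted in, at 1.44, 1.44 and 1.45 against 1.47, 1.52 and 1.53.

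Rplp0, the scaffold of the ribosomal stalk that recruits translation factors, had the lowest fold change of the 79 genes. Its level was 147, 141 and 162 RPKM in knockouts 1 to 3 and 453, 346 and 328 RPKM in wild types 1 to 3. Every knockout library lay at less than 50% of every wild-type library, at a mean of 150.0 ± 10.9 against 376 ± 67.5 RPKM (SD, n = 3 each). The log2 fold change was -1.30 ± 0.24 (SE; limma adjusted p = 0.0814), and without knockout replicate 2 it was -1.26 (adjusted p = 0.110), so the difference did not pass the threshold. Its partners on the stalk, Rplp1 and Rplp2, did not share it. Rplp1, the most abundant of the 79 genes, stood at 963, 1545 and 1041 RPKM against 1256, 855.7 and 795 (log2 fold change 0.29 ± 0.37, limma adjusted p = 0.714; 0.08 without knockout replicate 2). Rpl8, another of the 3 most abundant rows and one without an annotated copy, stood at 715, 633 and 702 RPKM against 743, 546 and 503 (0.21 ± 0.30, adjusted p = 0.734). Rplp2 stood at 15.6, 32.9 and 19.4 RPKM against 19.2, 14.4 and 13.9 (0.44 ± 0.29; 0.14 without knockout replicate 2).

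The genome carries 3 annotated copies of Rplp0 that also have rows in the table, and their coding sequence is 97.16% (Gm14165), 98.74% (Gm8730) and 97.37% (Gm9625) identical to that of Rplp0. Bases 544 to 603 of the coding sequence are shown as GENCODE M21 gives them on GRCm38, to make plain how little separates the rows to which a read is assigned. Capitals mark, in a copy, the bases that differ from Rplp0, and, in Rplp0, the bases at which any copy differs.
Rplp0 (gene at chr5:115559467-115563727, plus strand): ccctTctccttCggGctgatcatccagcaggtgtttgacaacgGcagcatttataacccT
Gm14165 (chr2:152353615-152354566, plus strand): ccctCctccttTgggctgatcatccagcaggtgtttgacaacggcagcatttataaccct
Gm8730 (chr8:102864845-102865798, minus strand): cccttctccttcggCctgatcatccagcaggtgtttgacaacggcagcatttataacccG
Gm9625 (chr13:67810246-67811200, plus strand): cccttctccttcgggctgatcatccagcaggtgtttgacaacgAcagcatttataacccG

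All 3 copies went the opposite way to Rplp0. Gm8730 was at 236, 221 and 254 RPKM in the knockout and 138, 105 and 111 in the wild type (log2 fold change 1.01 ± 0.22 SE, limma adjusted p = 0.154). Gm9625 was at 179, 152 and 193 RPKM against 102, 75.8 and 77.7 (1.03 ± 0.23, adjusted p = 0.150). Gm14165, the least abundant, was at 44.7, 34.4 and 40.2 RPKM against 17.9, 11.3 and 13.9, and it rose (1.42 ± 0.22, adjusted p = 0.0371; 1.52 and 0.0270 without knockout replicate 2, and 1.58 and 0.0636 without wild-type replicate 1). No knockout library overlapped a wild-type library in any of the 3 rows. Counted together, Rplp0 and its copies held 743, 676 and 799 reads per M reads in genes (RPM) in the knockout and 1030, 783 and 765 in the wild type. On this sum the groups overlapped, and the log2 fold change was -0.21 ± 0.28 (adjusted p = 0.725; -0.14 without knockout replicate 2). The level of Rplp0 as a single row is uncertain for this reason.

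**Figure D2:**
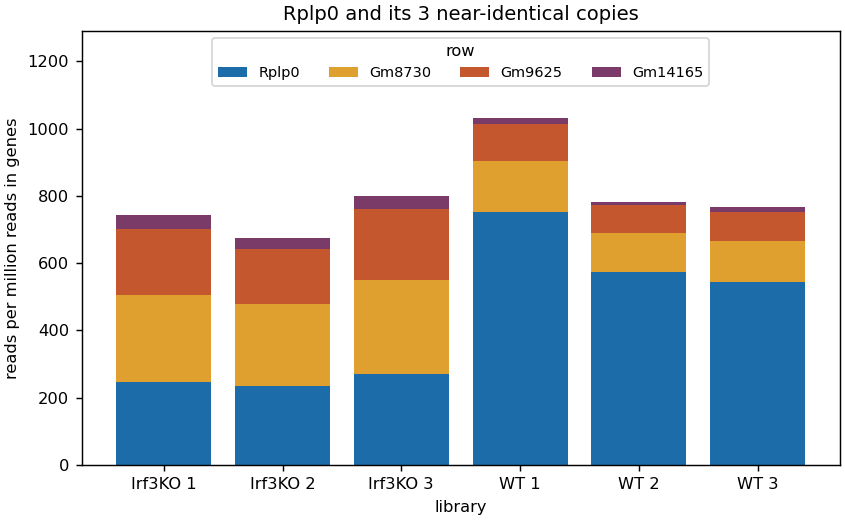
Stacked bars of RPM assigned to Rplp0, Gm8730, Gm9625 and Gm14165 in each library. The Rplp0 segment spans 545 to 752 in the wild type and 234 to 270 in the knockout, while the full bars overlap between the groups.

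Rps13, a small-subunit protein among the 3 least abundant rows, showed the sharpest exchange between copies. Its own row was at 2.06, 1.81 and 1.88 RPKM in the knockout and 1.65, 2.27 and 1.57 in the wild type (log2 fold change 0.05 ± 0.17 SE; 0.08 without knockout replicate 2), and held 4.34% of the reads of Rps13 and its copies. Rps13-ps1, whose sequence is 99.56% identical to the coding sequence, was at 123, 186 and 140 RPKM in the knockout and 0.12, 0.21 and 0 in the wild type (limma adjusted p = 4.05e-06). The row named Gm10159, now called Rps13-ps2 and 100% identical, was at 0, 0 and 0.03 RPKM in the knockout and 108, 78.9 and 75.3 in the wild type (adjusted p = 4.05e-06). The former rose and the latter fell, with every library of 1 genotype near 0 in each case, and both calls held without knockout replicate 2 (adjusted p = 6.95e-06 and 3.15e-05). Their sum with Rps13 came to 58.8, 87.2 and 66.2 RPM in the knockout and 58.7, 44.3 and 41.4 in the wild type (log2 fold change 0.55 ± 0.24, adjusted p = 0.558), where the lowest knockout library lay barely above wild-type replicate 1.

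Copies of this kind were common among the 79 genes. Annotated copies of at least 95% identity over at least 80% of the coding sequence were found for 73 genes, 520 copies in all and up to 57 for Rpl21. Rows for 131 of the copies were in the table, belonging to 65 genes. For 38 genes the copy rows held more reads than the gene's own row, and for 11 the own row held under 10% of the total. The mean level over all 6 libraries ran from 1.18 RPKM for Rpl5 to 1080 RPKM for Rplp1, with a median of 31.2. Counted with copies and per kb of mRNA, the range was 2.95 to 1400 RPM and the median 152. Some low own rows stood beside an abundant copy row, as in Rpl5 and Rps27, which held 2.5% and 1.28% of the reads. Others did not, as Rpl27, Rpl10 and Rpl35a held 93.3%, 91.4% and 84.9% in their own rows. These shares count only copies with a row, which 1 of 7, 1 of 9 and 1 of 14 annotated copies of these genes had. Reads from the other copies cannot be seen here. All 21 genes under 10 RPKM have an annotated copy, but so do 73 of the 79. The 6 genes without any, among them Rpl8, Rpl3l and Rps3, were all above 10 RPKM. Across the 79 genes, log2 mean RPKM and the logarithm of the number of copies had a Pearson's r of -0.42 and a Spearman's rho of -0.47, as a description over genes that share the same 6 libraries. RPKM also divides by the gene length in the table, whose median was 1535 bases against 775 for the mRNA. With the logarithm of table length over mRNA length, r was -0.33 and rho -0.34. The part of copies or of length in these levels was not tested.

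With the copies added, several low rows gave other values. Rpl10a was at 5.61, 2.87 and 5.57 RPKM against 8.52, 8.85 and 7.47, with every knockout library lower (log2 fold change -0.75 ± 0.25 SE, limma adjusted p = 0.501; -0.49 without knockout replicate 2), but its own row held 7.69% of the reads of the sum, and the rest lay in the identical copy Rpl10a-ps1. Their sum gave -0.18, and 0.01 without knockout replicate 2. Rps27 was at 3.92, 3.53 and 3.42 RPKM against 4.91, 4.46 and 4.06 (-0.24 ± 0.17) and held 1.28% of the reads of the pair it forms with Gm9846, now Rps27rt, which was at 390, 499 and 289 RPKM against 298, 212 and 191. The sum of that pair was at 0.72 ± 0.30 (adjusted p = 0.558). For Rpl9 the value was -0.31 on its own row and 0.24 on the sum (-0.08 and 0.34 without knockout replicate 2), and for Rpl31 it was -0.06 and 0.30 (-0.10 and 0.16). Over all 79 genes summed with their copies the median was 0.26 (0.21 without knockout replicate 2), 65 genes were above 0 (70), and 0 were called (0.477% of all features tested in that fit). Of the 130 copy rows tested by themselves, 109 were above 0 with a median of 0.28, beside 40.7% of all tested genes above 0, and without knockout replicate 2 it was 107 with a median of 0.21, beside 52.1%.

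The 5S particle joins Rpl5, Rpl11 and the 5S ribosomal RNA, and it binds the p53 regulator Mdm2 when ribosome assembly is disturbed. Rpl5 was at 1.07, 0.35 and 0.96 RPKM in the knockout and 1.32, 1.73 and 1.62 in the wild type (log2 fold change -0.53 ± 0.20 SE, limma adjusted p = 0.556; -0.34 without knockout replicate 2). Rpl11 was at 4.31, 4.00 and 4.37 RPKM against 5.60, 4.44 and 4.76 (-0.18 ± 0.18, adjusted p = 0.635). In both genes every knockout library lay below every wild-type library, which was so for 6 of the 79 genes (the others were Rplp0, Rpl10a, Rps12 and Rps27) and for 11.8% of all tested genes. The own row of Rpl5 held 2.50% of the reads of Rpl5 and its identical copy Gm15500, and their sum was at -0.01. With its copies Rpl11 was at 0.02. These sums were at 0.13 and 0.23 without knockout replicate 2. The 16 tested genes of p53 and its targets had a median of -0.17, with 4 above 0 and 0 called (-0.19 and 3 above 0 without knockout replicate 2); Mdm2 itself was at -0.62 ± 0.23 (adjusted p = 0.554).

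Around the tunnel through which the growing chain leaves the ribosome, 7 listed genes were tested and 4 lay above 0, with a median of 0.25. Leaving out knockout replicate 2 gave 6 and a median of 0.13, and without wild-type replicate 1 the median was 0.44. Rpl39, a small protein that lines the tunnel, had the second highest fold change of the 79 genes. It was at 68.7, 112 and 53.1 RPKM in the knockout and 54.0, 31.2 and 30.2 in the wild type. Wild-type replicate 1 lay just above knockout replicate 3, so the groups overlapped (log2 fold change 0.98 ± 0.33 SE, limma adjusted p = 0.513; 0.69 and 0.629 without knockout replicate 2). Its 3 copy rows were above 0 as well, at 1.30, 0.56 and 0.72, or 1.15, 0.12 and 0.33 without knockout replicate 2. Rpl4, whose long loop reaches into the tunnel and which was among the 3 most abundant rows, was at 698, 303 and 605 RPKM against 668, 602 and 567. Only knockout replicate 2 was low, and the fold change of -0.28 ± 0.37 became 0.09 without it. Rpl17 turned from -0.27 to 0.10 in the same way. Rpl26, Rpl19 and Rpl35 were at 0.44, 0.26 and 0.25 (0.28, 0.25 and 0.13 without knockout replicate 2), and none was called.

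Some ribosomal proteins have a paralogue that can take their place. Rpl3l replaces Rpl3 in the ribosomes of heart and skeletal muscle, and it had the highest fold change of the 79 genes. Its level was 35.9, 59.1 and 44.4 RPKM in knockouts 1 to 3 and 11.2, 17.0 and 39.2 RPKM in wild types 1 to 3. The wild-type libraries differed more than 3-fold among themselves, and the highest of them lay within the knockout range (46.5 ± 11.7 against 22.4 ± 14.8 RPKM, SD, n = 3 each; log2 fold change 1.17 ± 0.42 SE, limma adjusted p = 0.533; 0.99 and 0.701 without knockout replicate 2). The order of the 6 libraries in Rpl3l ran close to that of the summed cardiomyocyte markers, which was lowest in wild-type replicate 1 and highest in knockout replicate 2, and the part of cardiomyocyte RNA in this difference was not tested. All 15 cardiomyocyte markers lay above 0, with a median of 0.57, and 0 were called. Without knockout replicate 2 the median was 0.53 with 14 above 0, and without wild-type replicate 1 it was 0.18 with 12 above 0, where Rpl3l was at 0.79. Rpl3, its general counterpart, was at 36.5, 18.8 and 36.4 RPKM against 42.1, 36.9 and 30.4 (-0.30 ± 0.29; 0.01 without knockout replicate 2).

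Rpl22l1, the paralogue of Rpl22, was at 99.8, 138 and 79.6 RPKM in the knockout and 84.9, 52.5 and 52.7 in the wild type (log2 fold change 0.73 ± 0.29 SE, limma adjusted p = 0.556; 0.52 without knockout replicate 2). Wild-type replicate 1 again lay within the knockout range. Rpl22 itself was at 87.3, 95.5 and 74.4 RPKM against 83.5, 60.6 and 62.6 (0.32 ± 0.22), so gene and paralogue leaned the same way. Rps27l, a p53-responsive paralogue of Rps27, was at 106, 136 and 94.8 RPKM against 101, 72.8 and 69.5 (0.47 ± 0.24). Rps4y2, now named Rps4l and listed by RefSeq as a transcribed pseudogene, was at 28.6, 52.5 and 38.6 RPKM against 33.9, 27.3 and 25.2 (0.42 ± 0.25; 0.21 without knockout replicate 2), beside 0.04 for its X-linked partner Rps4x (0.19). Rpl7l1, which works mainly in ribosome assembly, was at -0.23 (0.02 without knockout replicate 2) and Rpl7 at 0.07 (0.03). None of these passed the test.

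**Figure D3:**
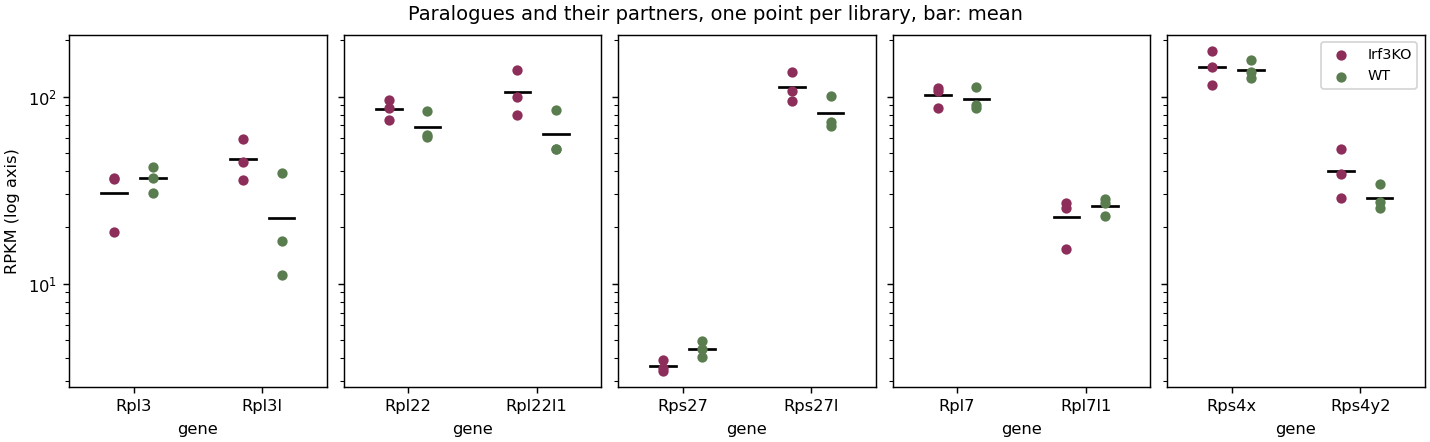
RPKM on a log axis of 5 ribosomal protein genes and their paralogues, 1 point per library, with bars at the group means. The wild-type points of Rpl3l spread from 11.2 to 39.2, and the knockout points of Rpl22l1 and Rps27l lie mostly above the wild-type points with 1 wild-type library among them.

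In 4 of the 79 genes every knockout library lay above every wild-type library, which was so for 6.61% of all tested genes. Rpl28, a large-subunit protein, was at 5.58, 12.6 and 6.64 RPKM against 5.35, 4.23 and 4.03 (log2 fold change 0.68 ± 0.29 SE, limma adjusted p = 0.556), and 0.36 without knockout replicate 2. Its own row held 15.7% of the reads of the sum with its copies, on which the value was 0.27 (0.04 without knockout replicate 2). Rpl14 was at 100.1, 130 and 96.5 RPKM against 91.9, 72.0 and 64.8 (0.51 ± 0.23). Rpl18 was at 20.2, 23.1 and 20.7 RPKM against 19.5, 14.5 and 14.1 (0.40 ± 0.19). In Rpl28, Rpl14 and Rpl18 the margin of the lowest knockout library over wild-type replicate 1 was small. Rpl38, which supports the translation of Hox mRNAs, was at 28.4, 35.4 and 22.6 RPKM against 23.2, 16.5 and 13.9 (0.67 ± 0.25, adjusted p = 0.556).

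Where the small subunit takes in and releases mRNA, all 7 listed genes lay above 0, with a median of 0.21, and 6 did so without knockout replicate 2, with a median of 0.28. Without wild-type replicate 1 the median was 0.43. Rps14, which lies near the decoding platform, was at 235, 417 and 222 RPKM against 262, 148 and 159 (log2 fold change 0.60 ± 0.34 SE; 0.32 without knockout replicate 2). Rps2 was at 0.46 (0.30) and Rps26 at 0.35. Rps3, with no annotated copy, was at 205, 171 and 194 RPKM against 225, 142 and 139 (0.21 ± 0.26). Rps28 and Rpsa were at 0.02 and 0.01 (-0.02 and 0.17 without knockout replicate 2). Rps27a, which is made as a fusion with ubiquitin, was at 0.08, and Rps6, the substrate of the S6 kinases, at 0.02 (0.11). Rpl13a, known for silencing inflammatory mRNAs once released from the ribosome, was at 0.41 ± 0.27 (0.23 without knockout replicate 2).

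The 11 genes of this family listed as mutated in Diamond-Blackfan anaemia, an inherited failure of red cell production, had a median of 0.11, with 7 above 0, and a median of 0.04, with 6 above 0, without knockout replicate 2. Rps7 was at 41.9, 86.1 and 41.7 RPKM in the knockout and 43.1, 31.0 and 29.9 in the wild type (log2 fold change 0.62 ± 0.31 SE, limma adjusted p = 0.556; 0.28 without knockout replicate 2). Rps19, the gene most often affected in that disease, was at 14.6, 10.4 and 13.1 RPKM against 18.2, 13.0 and 11.7 (-0.15 ± 0.23; -0.02 without knockout replicate 2). Rps10, Rps29 and Rps24 were at 0.34, 0.12 and 0.02 (0.28, -0.14 and 0.05 without knockout replicate 2). Rps12, which is not on that list, was at 9.41, 7.49 and 10.3 RPKM against 13.2, 13.6 and 10.7 (-0.43 ± 0.20), the lowest value of the small subunit. Of the genes described nowhere else here, 19 of the large subunit ran from -0.22 to 0.55 with 12 above 0, and 9 of the small subunit ran from 0.02 for Rps23 to 0.41 for Rps18, all above 0. Their ranges without knockout replicate 2 were -0.16 to 0.36 with 15 above 0 and -0.07 to 0.33 with 8 above 0.

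**Figure D4:**
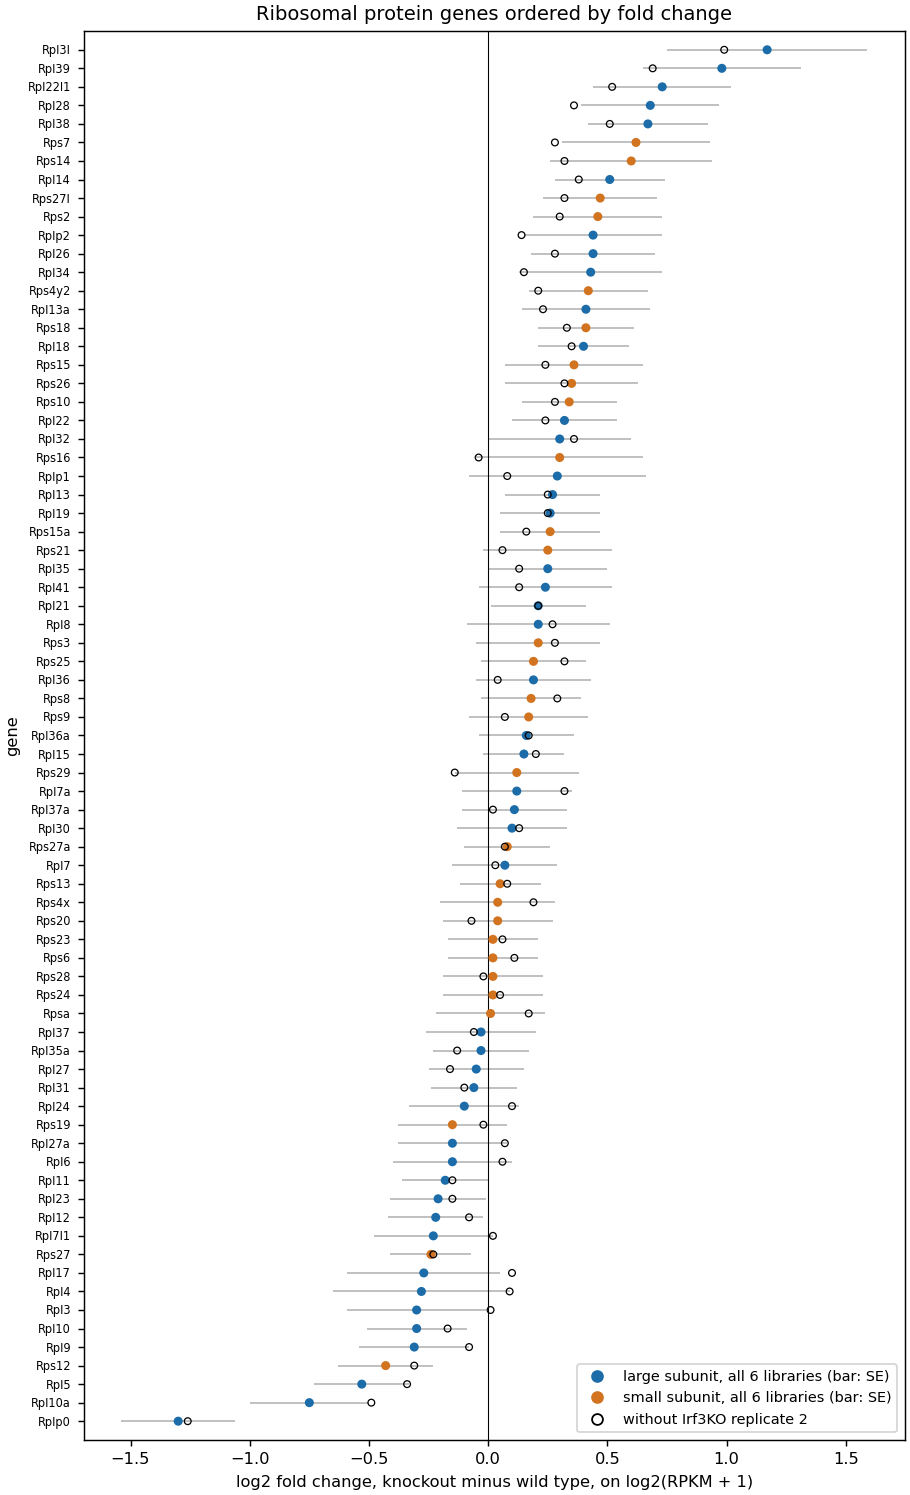
Log2 fold change of 75 of the 79 genes, knockout minus wild type, with its SE (filled points) and the value without knockout replicate 2 (open points). Filled points run from -1.30 for Rplp0 to 1.17 for Rpl3l, and most open points lie nearer to 0 than the filled ones at both ends.

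Knockout replicate 2 scattered these genes more than any other library. The SD over the 79 genes of their deviation from the wild-type mean was 0.65 there, against 0.31 and 0.28 in knockouts 1 and 3 and 0.10 to 0.19 in the wild type. Each wild-type library is part of that mean, which lowers its SD by construction. The knockout SDs also hold differences between the genotypes. The scatter ran in part with the length of the coding sequence. Relative to the mean of knockouts 1 and 3, Rpl4 lay at -1.10 and Rpl3 at -0.92, both with long coding sequences, while Rpl39 lay at 0.88 and Rps29 at 0.79, both short. Over the 78 genes with a coding sequence, Pearson's r with log2 coding length was -0.47 and Spearman's rho -0.48; all the points come from the same 3 libraries. Wild-type replicate 1 against wild types 2 and 3 gave -0.34 and -0.30. Length was not particular to these genes, since over all 12913 tested genes the values for knockout replicate 2 against the length in the table were -0.28 and -0.32. Against that same length the 79 genes gave -0.27 and -0.31, and against mRNA length -0.30 and -0.32, weaker than with coding length. Rpl17, at -1.10, Rps7, at 1.03, and Rps16, at 1.02, had coding sequences of 552, 582 and 438 bases, well inside the range of 75 to 1257.

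**Figure D5:**
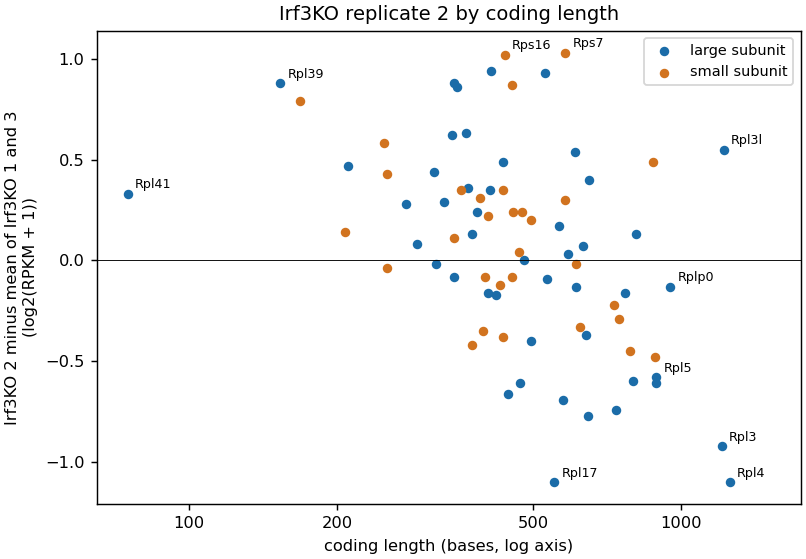
Knockout replicate 2 minus the mean of knockouts 1 and 3, in log2(RPKM + 1), against coding length in bases on a log axis, 1 point for each of 78 genes. Points fall from Rpl39 at 0.88 to Rpl4 at -1.10, with Rpl17 at -1.10 (552 bases) and Rps7 at 1.03 (582 bases) far apart at similar lengths.

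The pathway around the ribosome was read from lists of other genes, none of which had a called member. For 42 translation factors and other mRNAs with the same 5′ tract the median log2 fold change was 0.10, with 25 above 0 (0.16 without knockout replicate 2). The list held both signs: Eif1, an initiation factor, was at 0.59 ± 0.23 (SE; limma adjusted p = 0.556; 0.38 without knockout replicate 2), and Hnrnpa1, an RNA-binding protein, at -1.01 ± 0.33 (adjusted p = 0.483; -0.62 without knockout replicate 2). The 76 tested genes of ribosome biogenesis had a median of -0.15, with 28 above 0, and 0.01 without knockout replicate 2. All 5 tested host genes of small nucleolar RNAs lay below 0, with a median of -0.36 (-0.28 without knockout replicate 2). Snhg5 among them was at 12.2, 5.79 and 8.77 RPKM against 16.1, 16.1 and 11.3. The 18 tested genes of mTORC1 and Myc control had a median of 0.04, and one close to 0 without knockout replicate 2; Pdcd4, a translation inhibitor degraded on S6 kinase signalling, was at -0.64 ± 0.21 (adjusted p = 0.504).

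Mitochondria have a ribosome of their own, and the median log2 fold change of its 74 protein genes was 0.28, with 67 above 0 and 0 called. In 23 of these genes every knockout library lay above every wild-type library, beside 6.61% of all tested genes, against 4 of the 79 cytosolic genes. Mrps6 was at 11.8, 15.9 and 11.7 RPKM against 7.76, 8.41 and 7.80 (0.64 ± 0.19 SE, limma adjusted p = 0.434). Without knockout replicate 2 the median was 0.20. The summed cardiomyocyte markers, from cells rich in mitochondria, also had a higher mean in the knockout, and their part in this was not tested.

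By sequence feature, the 33 genes with a match in the tract search had a median of 0.25 and the 27 without a match 0.04. Without knockout replicate 2 these were 0.15 and 0.09, and no test of that difference was made. A missing match near the annotated start does not show that the mRNA lacks the tract. By position, the 79 genes lie on 19 chromosomes, and 14 are on chromosome 7 with Irf3. Their median was 0.23, with 12 above 0 (0.12, again 12, without knockout replicate 2). Rpl13a, 127 kb from Irf3, and Rpl18, 718 kb away (GRCm38), were at 0.41 and 0.40. Over the chromosome the values ran from -0.15 for Rps19 to 0.68 for Rpl28.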

How the data were processed

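The deposited table holds RPKM values, computed by the authors and rounded to 2 decimals. The submitters' processing notes list edgeR 3.8.6, HTSeq 0.6.0, STAR 2.3.0, Picard 1.100 and SAMtools 0.1.18.0, and build NCBIM37 (mm9). How these were set, whether strand was used and what was done with multi-mapping reads is not given in the sources used; this decides how reads are split between a gene and its copies. A gene name was repaired in 5 lines. Depth came from the steps between low RPKM times length (100% of the values used lay within 0.2 reads of a whole number).

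limma 3.58.1 (R 4.3.3; mean-variance trend, two-sided) was run on log2(RPKM + 1) of the 12913 genes averaging 1 RPKM or more, with Benjamini-Hochberg adjustment over all of them and a threshold of 0.05. Fold changes on this scale understate changes of low genes. The fit was also run on simulated data, with noise drawn independently for each gene and library. No simulated library stood apart as knockout replicate 2 did, so that run cannot show how the fit behaves with such a library. The labels do not say how the 3 animals of a group relate, so p-values measure only the spread between samples. An exact permutation test of 3 against 3 cannot go below 0.1.

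Coding sequences and copies came from GENCODE M21 (searched with blastn 2.17.0) and start sites from RefSeq, both on GRCm38 and matched by symbol. Sums with copies add RPKM times length. The genes and lists were chosen with earlier results of these data known. Named genes were any called, the 5 highest and 5 lowest fold changes, the 3 most and 3 least abundant, the 3 most variable between libraries, fixed role groups, and the 2 smallest p of each further list; Rpl14, Rpl18, Rpl21, Rps16, Rps18, Rps23 and Rps4y2 were named after their values were seen. Alternatives were the pseudocount, the filter, scaling, array weights, a replicate block, leaving out each library, and adding copies. A fit leaving out both knockout replicate 2 and wild-type replicate 1 was run and is not reported, since wild-type replicate 1 had been picked by the values of these same genes. Results for some genes of the family are not reported here.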

Additional observations from a re-analysis of the deposited data

How the results depend on the processing

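No ribosomal protein gene was called with a pseudocount of 0.1 or 5, with no filter, with a filter of 5 RPKM, with median-of-ratios scaling, with copies added (chosen after seeing the data), or with any 1 library left out (lowest and highest count 0 and 0). With array weights, which ran from 0.103 for knockout replicate 2 to 6.355 for knockout replicate 3, 24 were called higher and 5 lower, beside 2960 of all tested genes (22.9%). With the replicate block 1 gene, Rpl3l, was called higher and 0 lower, beside 250 of all tested genes. Same-numbered libraries had correlations of 0.129, -0.098 and -0.102, so the numbers are not taken as a pairing. The count over all tested genes, 65, was 34 with the filter of 5 RPKM and 21 to 96 with 1 library left out. With 1 library left out, the median of the 79 genes ran from 0.09 to 0.30, that of all tested genes from -0.15 to 0.01, that of the large subunit from 0.05 to 0.28, that of the small subunit from 0.09 to 0.30, and the difference in share of reads (0.101 percentage points) from 0.0388 to 0.209. With the other settings the median of the 79 genes lay between 0.12 and 0.27 and that of all tested genes between -0.10 and 0.02.

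Signs turned for these named genes. With array weights Rpl4 was at 0.02, Rps13 at -0.10, Rpl17 at 0.06, Rps27a at -0.07, Rpl7 at -0.03, Rps19 at 0.02, Rps24 at -0.04 and Rpl35a at 0.06. With median-of-ratios scaling Rpl31 was at 0.05 and Rpl35a at 0.07. With copies added Rpl9 was at 0.24, Rpl11 at 0.02, Rpl31 at 0.30 and Rps27 at 0.72. With 1 library left out the ranges that crossed 0 were Rpl4 -0.51 to 0.09, Rps13 -0.01 to 0.16, Rpl17 -0.53 to 0.10, Rpl31 -0.12 to 0.01, Rps28 -0.06 to 0.15, Rpsa -0.10 to 0.17, Rpl7l1 -0.38 to 0.02, Rpl3 -0.45 to 0.01, Rps4x -0.10 to 0.19, Rps19 -0.27 to 0.03, Rps24 -0.08 to 0.14, Rps29 -0.14 to 0.27, Rpl35a -0.13 to 0.09 and Rps6 -0.06 to 0.12, while Rps27a and Rpl7 ran from just below 0 to 0.18. The cause was not tested.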
